A study of Rattus norvegicus with 12 samples.

Results

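The genes of cholesterol synthesis, uptake and efflux were followed in INS-1 cells, which come from a rat insulinoma and release insulin as glucose rises. The group was fixed as a list of 32 genes by name: 4 that sense sterols, 19 enzymes of synthesis, 4 that transport or store cholesterol, and 5 of the LXR receptors, efflux and receptor turnover. All 32 had an entry among the 28727 named genes, and 31 were among the 14669 that passed a filter on low counts. Nr1h3, the LXRα receptor, did not pass, with 0 to 13 counts in a library. The cells carried an adenovirus for GFP, the control, or one for mouse ChREBPβ with an mCherry tag, and were kept in 2 mM or 11 mM glucose for 48 h. That gave 4 groups of 3 libraries, 12 in all, from a single cell line, so all groups share the transformed background of the line and a viral infection. The study's general adenovirus methods give a longer time than the one stated for this RNA sequencing. The study describes its experiments as independent repeats, while the labels give each library only a letter, so the p-values measure the spread between these libraries.

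Cells make cholesterol from acetyl-CoA through HMG-CoA, mevalonate, prenyl diphosphates, squalene and lanosterol. The transcription factor SREBP2 turns on most enzymes of the route when sterols in the endoplasmic reticulum are low, with SCAP as its escort and the INSIG proteins as the brake that holds it back. When sterols are plentiful, the LXR receptors turn on export by ABCA1 and ABCG1 and the ubiquitin ligase MYLIP, which removes lipoprotein receptors. ChREBP, the product of Mlxipl, responds to glucose and is made in a long α form and a short β form. It is best known for genes of glycolysis and fatty acid synthesis, for which it binds paired E-boxes. In β-cells, membrane cholesterol bears on insulin granules and secretion.

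Library totals ran from 25754488 to 32938546 counts in GFP cells at 2 mM and from 57088794 to 60531215 in ChREBPβ cells at 11 mM, so depth differed between the groups. In ChREBPβ cells at 2 mM the totals ran from 28595982 to 57726412, and the shallow library, replicate a, had levels of these genes close to those of its 2 companions. Levels are given as CPM, the counts of a gene scaled to a common library size with TMM factors. Since CPM are not per length, they are compared between groups for the same gene and not between genes. Of the 12 β-cell markers 11 could be tested, and 10 were lower with ChREBPβ at both glucose levels, their summed level running from 26268 to 29385 CPM in GFP cells at 2 mM and from 13765 to 14147 CPM in ChREBPβ cells at 2 mM. The 1 marker called higher was Slc2a2. Summed markers of macrophages, endothelial, acinar and hepatic cells stayed at or under 7.68 CPM in every library and those of fibroblasts at or under 1.11 CPM. At 3 counts or fewer everywhere were 3 of 5 acinar, 3 of 5 fibroblast and 2 of 6 macrophage markers. The fibroblast sum reached 0.117 CPM in GFP cells at 2 mM and 1.11 CPM in ChREBPβ cells, where most of it was Pdgfrb, at 0.41 to 1.01 CPM. The macrophage sum moved from 2.27 to 2.87 CPM up to between 5.34 and 5.87 CPM at 2 mM. Most of it was C1qa, at 1.78 to 2.34 CPM in GFP and 4.64 to 5.03 CPM in ChREBPβ cells at 2 mM. Ptprc and C1qb read 0 CPM in every library. Whether such cells were present, and their part in the results, was not tested. Pklr, a ChREBP target of glycolysis, rose 3.22-fold at 2 mM and 2.11-fold at 11 mM. The table has an entry named ChREBPb, whose exact sequence the sources do not give, and it read 77.8 ± 4.53 (SD) and 90.2 ± 0.504 CPM at 2 mM, a change of 0.21 ± 0.06 (SE) on the log2 scale that lay under 1.2-fold. At 11 mM it ran from 64.7 to 73.3 CPM in GFP and from 81.4 to 98.3 CPM in ChREBPβ cells and rose by 0.37 ± 0.06 (adjusted p = 6.90e-05). Mlxipl itself read 256 ± 18.8 and 205 ± 6.63 CPM at 2 mM and 207 ± 5.32 and 188 ± 11.0 CPM at 11 mM. Whether either entry counts the mouse sequence of the virus is not given in the sources used here.

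A gene passed the test with an adjusted p under 0.05 over all 14669 genes and a change of at least 1.2-fold. With ChREBPβ at 2 mM, 16 of the 31 genes rose and 4 fell, against 21% of all tested genes called higher and 23.2% called lower. Their median change was 0.29 on the log2 scale, beside -0.02 over all genes. At 11 mM, 12 rose and 3 fell, against backgrounds of 14.3% and 19.1%, with medians of 0.16 and -0.02. Abca1, the pump that hands cholesterol to apolipoprotein acceptors, had the greatest rise of the 31 in both comparisons, and Mylip the greatest fall. For glucose alone, 4 rose and 3 fell from 2 to 11 mM in GFP cells, where 10.2% and 10% of all genes were called, and 0 rose and 2 fell in ChREBPβ cells, where 0.988% and 2.88% were called. At an unadjusted p under 0.05 the last pair was 2 higher and 5 lower, and DESeq2 too called 0 and 2. In RNA from whole cultures, fewer cells that express a gene and less RNA per cell cannot be told apart. With library totals in place of TMM scaling, the median of all genes moved to -0.12 at 2 mM and -0.10 at 11 mM, and the split of the 31 genes was 12 to 5 and 8 to 5, with 0 calls reversed. The map of the 31 genes by library shows each of them beside its GFP mean at 2 mM.

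**Figure D1:**
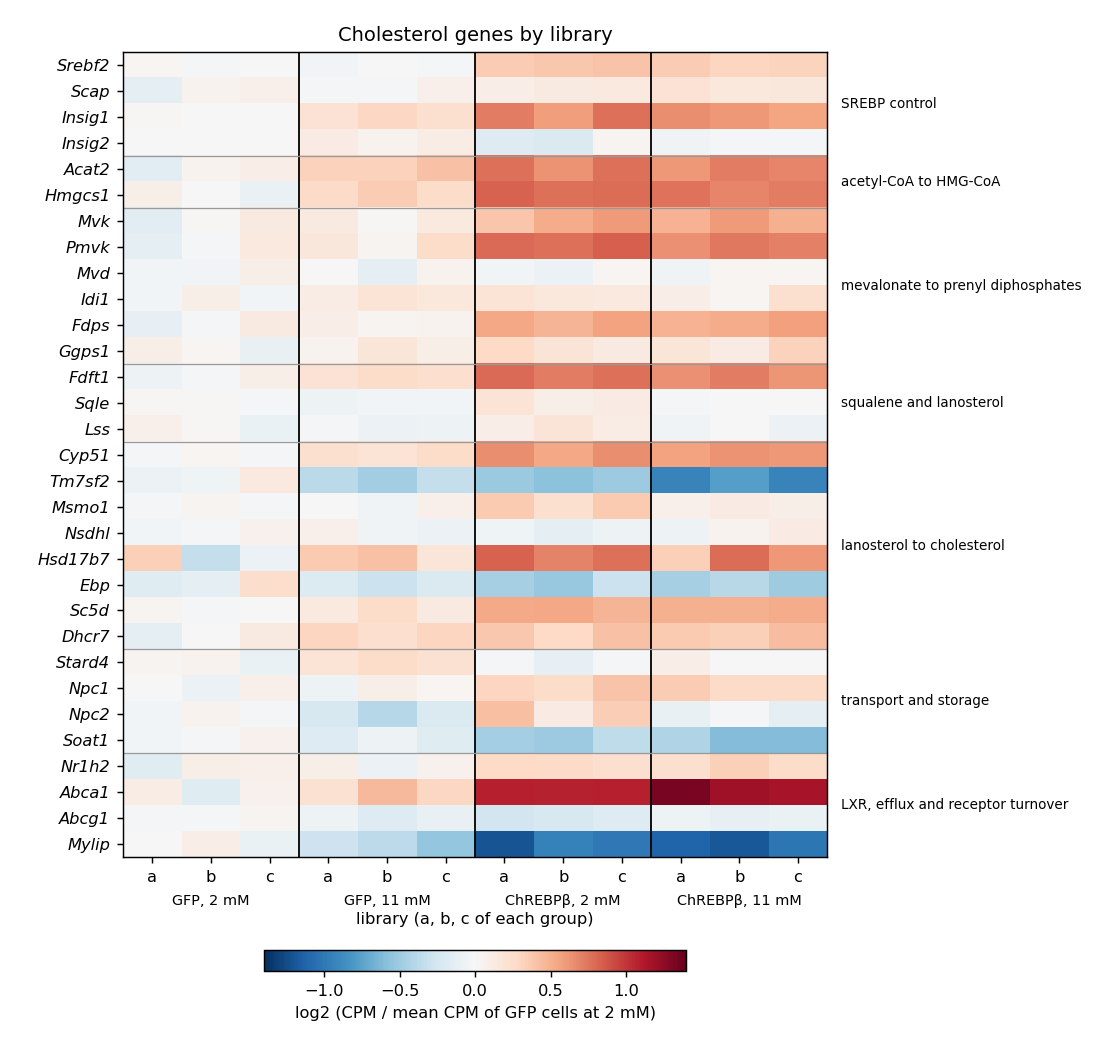
Level of each of the 31 tested cholesterol genes (rows, grouped by role) in each of the 12 libraries (columns a, b and c of each group), as the log2 ratio of its CPM to the mean CPM of GFP cells at 2 mM. Red is higher and blue lower: Abca1, Hmgcs1, Pmvk and Fdft1 are red and Mylip, Tm7sf2 and Soat1 blue in all 6 ChREBPβ libraries.

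Promoter sequences were found for 27 of the 32 genes in the RefSeq set for the GRCr8 assembly, each of 250 bases before and 50 after the start. The core sterol response element TCACNCCAC, read on both strands, was in 0 of the 27 windows and in 1.12% of all 33469 promoters of that length. At so low a share, this search for 1 strict sequence could not tell whether the genes hold sterol response elements. An E-box, CACGTG, was in 4 of the 27 (14.8%) and in 6.42% of all promoters. The 4 were Scap at -50, Insig1 at -79, Sc5d at -161 and Abca1 at -149 from the start. Of the 14 windows of genes that rose with ChREBPβ at 2 mM, 3 held an E-box. It was in 0 of the 4 of genes that fell and in 1 of the 8 of genes that did not pass. CACGTG repeated after 5 bases, a form of the ChREBP element, was in 0 of the 27 and in 0.00299% of all promoters. The exact repeat is so rare that this search could not tell whether the genes hold ChREBP elements. The CCAAT box, bound by the factor NF-Y that works beside SREBP2, was in 19 of the 27 (70.4%) and in 37.5% of all promoters. It was in 9 of the 14 windows of genes that rose with ChREBPβ at 2 mM, in 4 of the 4 of genes that fell and in 6 of the 8 of genes that did not pass. The 250 bases before the start are shown for Insig1, Hmgcs1, Sc5d and Abca1, members from the brake, the entry and the end of synthesis and from efflux that rose with ChREBPβ. All 3 windows of risen genes with an E-box are among them, so the E-box is more frequent in those shown than in the 14. Capitals mark the CCAAT box (read as ATTGG on the other strand), the E-box and, in Abca1, the repeat of its LXR element (TGACCG, 4 bases and TAACC), which 0.00896% of all promoters hold. The CCAAT box and the LXR repeat were added after the first search. The LXR repeat searched for is that of Abca1 itself, so its match there was fixed in advance, and it was in 1 of the 27 windows. A match is a run of letters in this window, not a bound site, and binding was not measured here. The windows lie, on GRCr8, at chr4:8057770-8058019, minus strand for Insig1, at chr2:53382054-53382303, plus strand for Hmgcs1, at chr8:51538278-51538527, minus strand for Sc5d, and at chr5:72596474-72596723, minus strand for Abca1.
Insig1: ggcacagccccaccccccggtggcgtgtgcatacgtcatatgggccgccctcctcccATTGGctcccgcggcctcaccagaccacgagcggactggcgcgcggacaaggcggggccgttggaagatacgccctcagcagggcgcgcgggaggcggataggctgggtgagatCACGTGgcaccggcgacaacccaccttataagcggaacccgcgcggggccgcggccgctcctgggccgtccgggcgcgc
Hmgcs1: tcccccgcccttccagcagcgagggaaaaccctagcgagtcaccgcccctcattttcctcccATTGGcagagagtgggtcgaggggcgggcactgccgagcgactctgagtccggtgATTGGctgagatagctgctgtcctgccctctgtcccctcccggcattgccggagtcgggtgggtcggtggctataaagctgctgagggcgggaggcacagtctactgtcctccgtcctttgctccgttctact
Sc5d: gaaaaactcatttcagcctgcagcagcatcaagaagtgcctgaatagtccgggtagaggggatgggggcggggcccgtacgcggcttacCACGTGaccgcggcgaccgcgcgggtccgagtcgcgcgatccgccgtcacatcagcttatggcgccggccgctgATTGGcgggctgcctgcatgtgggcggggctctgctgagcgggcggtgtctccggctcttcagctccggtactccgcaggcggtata
Abca1: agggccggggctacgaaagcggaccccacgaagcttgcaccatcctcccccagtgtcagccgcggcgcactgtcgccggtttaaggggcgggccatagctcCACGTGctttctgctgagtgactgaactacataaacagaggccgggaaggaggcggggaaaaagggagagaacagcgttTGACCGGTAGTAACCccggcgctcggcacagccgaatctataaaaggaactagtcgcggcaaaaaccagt

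Among the 4 genes that control SREBP2, Srebf2 and Insig1 rose with ChREBPβ at both glucose levels, and Scap and Insig2 did not pass the test. That was 50% called higher, beside 21% of all genes at 2 mM and 14.3% at 11 mM. Insig1 read 92.6, 91.2 and 91.5 CPM in GFP cells at 2 mM, 105, 112 and 107 at 11 mM, 151, 138 and 157 in ChREBPβ cells at 2 mM and 145, 139.8 and 134 at 11 mM. All 6 ChREBPβ libraries lay above all 6 GFP libraries. The change in Insig1, a brake on SREBP2 that is itself an SREBP2 target, was 1.62-fold at 2 mM, or 0.69 ± 0.05 (SE) on the log2 scale (adjusted p = 2.24e-10), and 1.29-fold at 11 mM (adjusted p = 2.13e-06). Its promoter holds an E-box and a CCAAT box. Srebf2, which encodes SREBP2, went from 267 ± 4.54 (SD, n = 3) to 347 ± 5.63 CPM at 2 mM, a log2 change of 0.38 ± 0.04, and by 0.34 ± 0.04 at 11 mM. That rise at 11 mM was 0.26 with library totals, under 1.2-fold. Scap, the escort, whose promoter holds an E-box too, had log2 changes of 0.12 ± 0.05 and 0.16 ± 0.05. Both were under the 1.2-fold limit, with adjusted p of 0.0448 and 0.0107. Insig2, the other brake, changed by -0.11 ± 0.08 and -0.12 ± 0.08 (adjusted p = 0.263 and 0.187).

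Both enzymes from acetyl-CoA to HMG-CoA rose, beside 21% of all genes called higher at 2 mM and 14.3% at 11 mM. Hmgcs1 encodes the cytosolic HMG-CoA synthase and is a classical SREBP2 target. So are Idi1, Sqle and Lss, which passed the test at neither glucose level. Hmgcs1 read 77.2, 73.1 and 68.3 CPM in GFP cells at 2 mM, 87.6, 93.2 and 86.8 at 11 mM, 129, 124 and 126 in ChREBPβ cells at 2 mM and 124, 117 and 120.0 at 11 mM. Every ChREBPβ library was above every GFP library, and the change was 1.73-fold at 2 mM (log2 0.79 ± 0.05, adjusted p = 2.70e-11) and 1.35-fold at 11 mM (log2 0.43 ± 0.05, adjusted p = 2.44e-07). Acat2 encodes the cytosolic thiolase that joins 2 acetyl-CoA. Acat2 read 25.8, 29.7 and 30.5 CPM in GFP cells at 2 mM, 35.8, 35.9 and 38.1 at 11 mM, 48.9, 44.4 and 48.8 in ChREBPβ cells at 2 mM and 43.5, 47.2 and 46.0 at 11 mM. Its groups did not overlap between the viruses either, with a rise of 1.65-fold at 2 mM (adjusted p = 7.44e-09) and 1.24-fold at 11 mM (adjusted p = 2.16e-04). The rise of Acat2 at 11 mM was 0.23 on the log2 scale with library totals, under 1.2-fold. RefSeq names pseudogenes or copies of Acat2, Idi1, Fdps and Cyp51, and how the authors counted reads shared with them is not given in the sources used here, so the levels of these 4 are less certain.

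From mevalonate to the prenyl diphosphates, 3 of 6 enzymes rose at both glucose levels and 0 fell. Of all genes, 21% were called higher and 23.2% lower at 2 mM, and 14.3% and 19.1% at 11 mM. Pmvk, the kinase of phosphomevalonate, had the largest value of the 19 enzymes in both comparisons, at 2 mM within the standard error of that of Hmgcs1. Pmvk read 25.3, 27.6 and 30.7 CPM in GFP cells at 2 mM, 31.1, 28.6 and 33.4 at 11 mM, 48.4, 47.5 and 49.7 in ChREBPβ cells at 2 mM and 43.4, 46.3 and 45.5 at 11 mM. The libraries of the 2 viruses did not overlap, and the changes were 1.74-fold (log2 0.80 ± 0.07, adjusted p = 3.51e-09) and 1.45-fold (log2 0.54 ± 0.06, adjusted p = 8.00e-07). Fdps read 133, 143 and 158 CPM in GFP cells at 2 mM, 155, 148 and 149.7 at 11 mM, 211, 201 and 213 in ChREBPβ cells at 2 mM and 203, 208 and 215 at 11 mM. Fdps makes farnesyl diphosphate, the branch point to prenylated proteins and ubiquinone, and rose by 0.53 ± 0.05 and 0.47 ± 0.05 on the log2 scale, with the ChREBPβ libraries again all higher. Mvk, the mevalonate kinase, rose by 0.51 ± 0.07 and 0.44 ± 0.07. Its level was 24.5 ± 2.41 (SD, n = 3) in GFP cells and 34.7 ± 2.51 CPM in ChREBPβ cells at 2 mM, and its promoter window holds CCAAT at 5 positions. Mvd, the decarboxylase that follows Pmvk, had log2 changes of -0.03 ± 0.06 and 0.03 ± 0.06, and its groups overlapped at both glucose levels. Idi1, the isomerase, changed by 0.16 ± 0.05 and -0.03 ± 0.05 and Ggps1, which makes geranylgeranyl diphosphate, by 0.19 ± 0.06 and 0.11 ± 0.06, none of them past the test.

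In the steps from farnesyl diphosphate to lanosterol, 1 of 3 enzymes rose, beside 21% of all genes at 2 mM and 14.3% at 11 mM. Fdft1 encodes squalene synthase, which commits the route to sterols. Fdft1 read 33.3, 34.3 and 37.0 CPM in GFP cells at 2 mM, 40.0, 41.7 and 41.1 at 11 mM, 60.2, 57.2 and 59.4 in ChREBPβ cells at 2 mM and 54.5, 57.4 and 53.6 at 11 mM. The 6 ChREBPβ libraries lay above the 6 GFP libraries, with a rise of 1.69-fold at 2 mM (log2 0.76 ± 0.05, adjusted p = 1.35e-10) and 1.35-fold at 11 mM (log2 0.43 ± 0.05, adjusted p = 4.16e-07). Sqle, the squalene epoxidase and a rate-limiting step, went from 134 ± 2.02 to 146 ± 5.98 CPM at 2 mM (SD, n = 3), a log2 change of 0.13 ± 0.04 that lay under 1.2-fold, and by 0.04 ± 0.04 at 11 mM. Lss, which closes the ring of lanosterol, changed by 0.12 ± 0.05 and 0.01 ± 0.05 and did not pass.

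From lanosterol to cholesterol, 5 of 8 enzymes rose and 2 fell at 2 mM, beside 21% and 23.2% of all genes, and 2 rose and 1 fell at 11 mM, beside 14.3% and 19.1%. The share that fell was 25% at 2 mM and 12.5% at 11 mM, near or under that of all genes. Cyp51, the lanosterol demethylase, read 158 ± 2.98 and 242 ± 10.6 CPM at 2 mM (SD, n = 3) and rose by 0.62 ± 0.04 on the log2 scale there and by 0.37 ± 0.04 at 11 mM. Sc5d, the sterol desaturase whose promoter holds an E-box, rose by 0.51 ± 0.05 and 0.33 ± 0.05, and its rise at 11 mM was 0.25 with library totals. Msmo1, a methyl sterol oxidase, rose by 0.32 ± 0.05 at 2 mM, and Dhcr7, the reductase of a last step, by 0.36 ± 0.06. At 11 mM the changes of these 2 genes were 0.08 ± 0.05 and 0.10 ± 0.05 and did not pass, and their rises at 2 mM fell under 1.2-fold with library totals, at 0.22 and 0.26. Hsd17b7, a sterol ketone reductase with 60 to 216 counts in a library, rose by 0.77 ± 0.17 at 2 mM and changed by 0.27 ± 0.16 at 11 mM. Tm7sf2 went the other way. Tm7sf2 read 25.7, 26.2 and 29.9 CPM in GFP cells at 2 mM, 21.0, 19.4 and 21.7 at 11 mM, 19.0, 18.3 and 19.1 in ChREBPβ cells at 2 mM and 14.2, 16.0 and 14.3 at 11 mM. This sterol Δ14-reductase was lower in all ChREBPβ libraries than in the GFP libraries at the same glucose. Its log2 changes were -0.54 ± 0.07 at 2 mM (adjusted p = 2.18e-06) and -0.48 ± 0.07 at 11 mM (adjusted p = 1.13e-05). Lbr, another sterol Δ14-reductase, is counted below among the enzymes that work beside the sterol enzymes. It ran from 43.7 to 46.8 CPM in GFP cells and from 49.3 to 51.9 CPM in ChREBPβ cells at 2 mM. At 11 mM its groups overlapped, at 53.5 to 56.0 CPM in GFP and 52.0 to 54.5 CPM in ChREBPβ cells. Ebp, the sterol isomerase, fell at 2 mM by 25.6%, with -0.43 ± 0.09 on the log2 scale, and had a change of -0.22 ± 0.09 at 11 mM, where it did not reach 1.2-fold. Nsdhl had changes of -0.09 ± 0.06 and 0.05 ± 0.06 and did not pass.

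Over the 19 enzymes, 11 rose and 2 fell at 2 mM, or 57.9% and 10.5% beside 21% and 23.2% of all tested genes. At 11 mM 8 rose and 1 fell, or 42.1% and 5.26% beside 14.3% and 19.1%, with median log2 changes of 0.36 and 0.11. Their summed level was 1122 ± 23.8 CPM (SD, n = 3) in GFP cells at 2 mM, 1208 ± 10.4 at 11 mM, 1479 ± 40.6 in ChREBPβ cells at 2 mM and 1423 ± 22.8 at 11 mM. The lowest ChREBPβ library, at 1399 CPM, was above the highest GFP library, at 1219 CPM. The rise was uneven along the route: Acat2, Hmgcs1, Mvk, Pmvk, Fdps, Fdft1, Cyp51 and Sc5d rose at both glucose levels, Tm7sf2 fell at both, and Mvd, Idi1, Ggps1, Sqle, Lss and Nsdhl passed the test at neither.

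**Figure D2:**
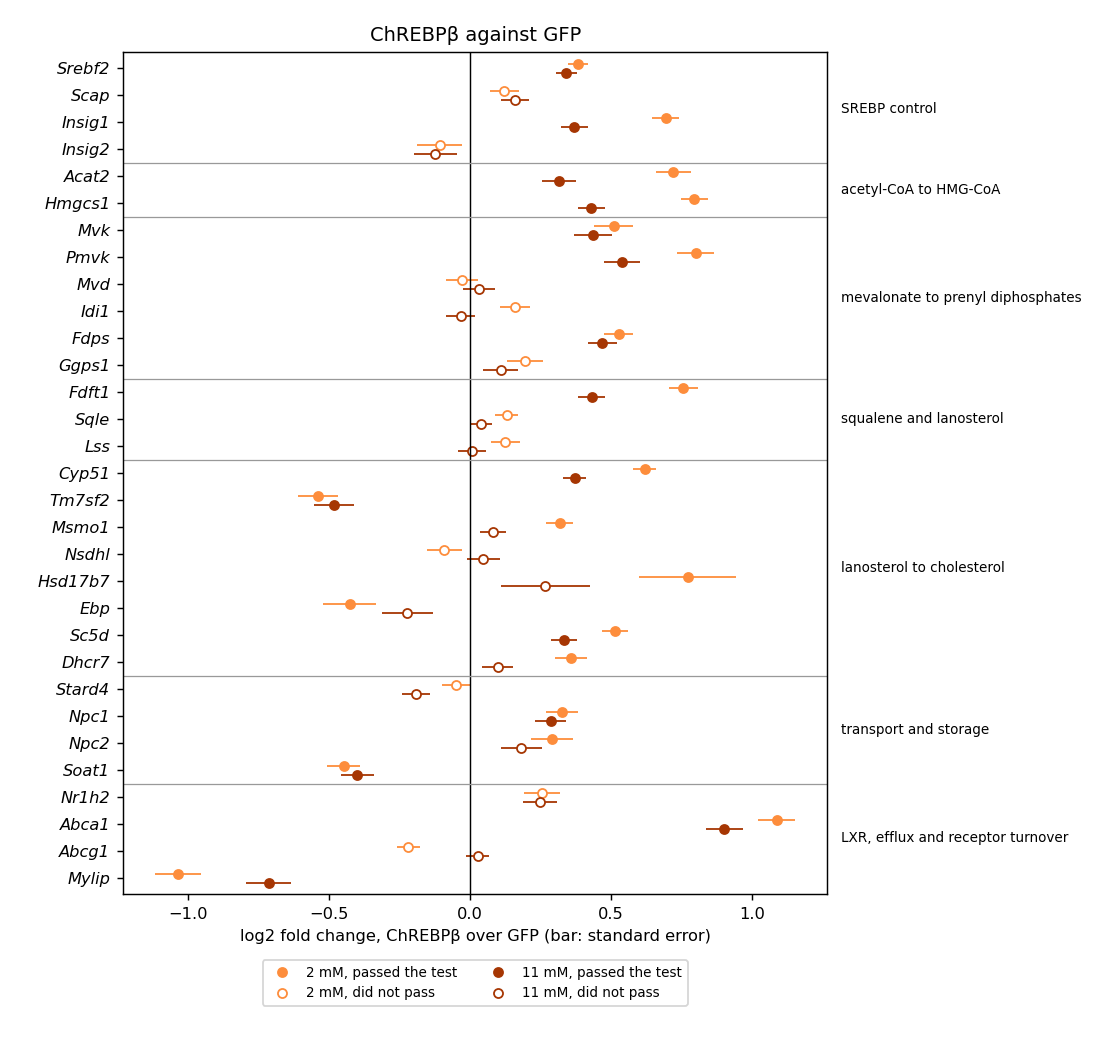
Log2 fold change of ChREBPβ over GFP (horizontal axis) for the 31 tested genes grouped by role, at 2 mM (light) and 11 mM glucose (dark), with bars of 1 standard error and filled points for genes that passed the test (3 libraries a group). Filled points to the right number 16 at 2 mM and 12 at 11 mM, and those to the left 4 and 3.

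Of the 4 genes that move or store cholesterol inside the cell, Npc1 rose at both glucose levels, Npc2 at 2 mM, and Soat1 fell at both. At 2 mM that was 50% higher and 25% lower, beside 21% and 23.2% of all genes. At 11 mM it was 25% and 25%, beside 14.3% and 19.1%. Soat1 read 64.5, 64.5 and 68.9 CPM in GFP cells at 2 mM, 58.0, 62.8 and 58.6 at 11 mM, 47.3, 46.3 and 51.4 in ChREBPβ cells at 2 mM and 49.2, 43.3 and 43.4 at 11 mM. Soat1 encodes the enzyme that esterifies cholesterol for storage, and every ChREBPβ library was below every GFP library. It fell by 26.7% at 2 mM (log2 -0.45 ± 0.06, adjusted p = 1.95e-06) and by 24.2% at 11 mM (log2 -0.40 ± 0.06, adjusted p = 9.68e-06). Npc1 and Npc2 together carry cholesterol out of lysosomes. Npc1 read 44.5 ± 2.44 and 55.7 ± 2.76 CPM at 2 mM (SD, n = 3), a log2 change of 0.32 ± 0.06, and changed by 0.29 ± 0.06 at 11 mM. Npc2 read 24.0, 25.4 and 24.4 CPM in GFP cells at 2 mM, 21.1, 18.7 and 21.4 at 11 mM, 32.9, 26.6 and 31.4 in ChREBPβ cells at 2 mM and 22.9, 24.3 and 22.5 at 11 mM. In ChREBPβ cells at 2 mM the libraries of Npc2 spread from 26.6 to 32.9 CPM, all above the GFP libraries at 2 mM. Its change there was 0.29 ± 0.07 (adjusted p = 0.00241) and at 11 mM 0.18 ± 0.07, which did not reach 1.2-fold. Stard4, a sterol carrier of the cytosol, changed by -0.05 ± 0.05 and -0.19 ± 0.05 and did not pass. The calls near the limit turned on single libraries: Npc2 at 2 mM was 0.24 without ChREBPβ 2 mM replicate a and 0.26 without replicate c, and Npc1 at 11 mM was 0.24 without GFP 11 mM replicate a and 0.25 without ChREBPβ 11 mM replicate a, each under 1.2-fold. With library totals Npc1 fell short at both glucose levels, at 0.23 and 0.20, and Npc2 at 2 mM, at 0.19.

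Among the LXR receptors and their known targets, Abca1 rose and Mylip fell at both glucose levels, and Nr1h2 and Abcg1 did not pass. That was 25% of the 4 tested genes in each direction. Of all genes, 21% were called higher and 23.2% lower at 2 mM, and 14.3% and 19.1% at 11 mM. Abca1 read 169, 139.6 and 164 CPM in GFP cells at 2 mM, 183, 216 and 192 at 11 mM, 335, 332 and 336 in ChREBPβ cells at 2 mM and 396, 358 and 350.0 at 11 mM. Abca1 in the ChREBPβ libraries started at 332 CPM, and the GFP libraries ended at 216 CPM. The rise was 2.12-fold at 2 mM (log2 1.09 ± 0.07, adjusted p = 3.08e-11) and 1.87-fold at 11 mM (log2 0.90 ± 0.07, adjusted p = 6.27e-10). Its promoter has both an E-box and the LXR repeat. Mylip read 27.9, 29.9 and 26.3 CPM in GFP cells at 2 mM, 23.0, 21.8 and 19.3 at 11 mM, 12.1, 14.6 and 14.0 in ChREBPβ cells at 2 mM and 12.9, 12.3 and 13.8 at 11 mM. MYLIP is the ligase that marks lipoprotein receptors for degradation, and its transcript fell by 51.2% at 2 mM (log2 -1.03 ± 0.08, adjusted p = 1.52e-09) and by 39.0% at 11 mM (log2 -0.71 ± 0.08, adjusted p = 3.45e-07). The ChREBPβ libraries of Mylip all lay under the GFP libraries. Abcg1, the companion pump, had log2 changes of -0.22 ± 0.04 and 0.03 ± 0.04. The first was below 1.2-fold with an adjusted p of 1.35e-04, and it passed with library totals, at -0.32. Nr1h2, the LXRβ receptor, changed by 0.25 ± 0.06 and 0.25 ± 0.06, both just under 1.2-fold. Abca1 and Mylip, both known LXR targets, changed in opposite directions. The plot of 6 genes by library shows these levels.

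**Figure D3:**
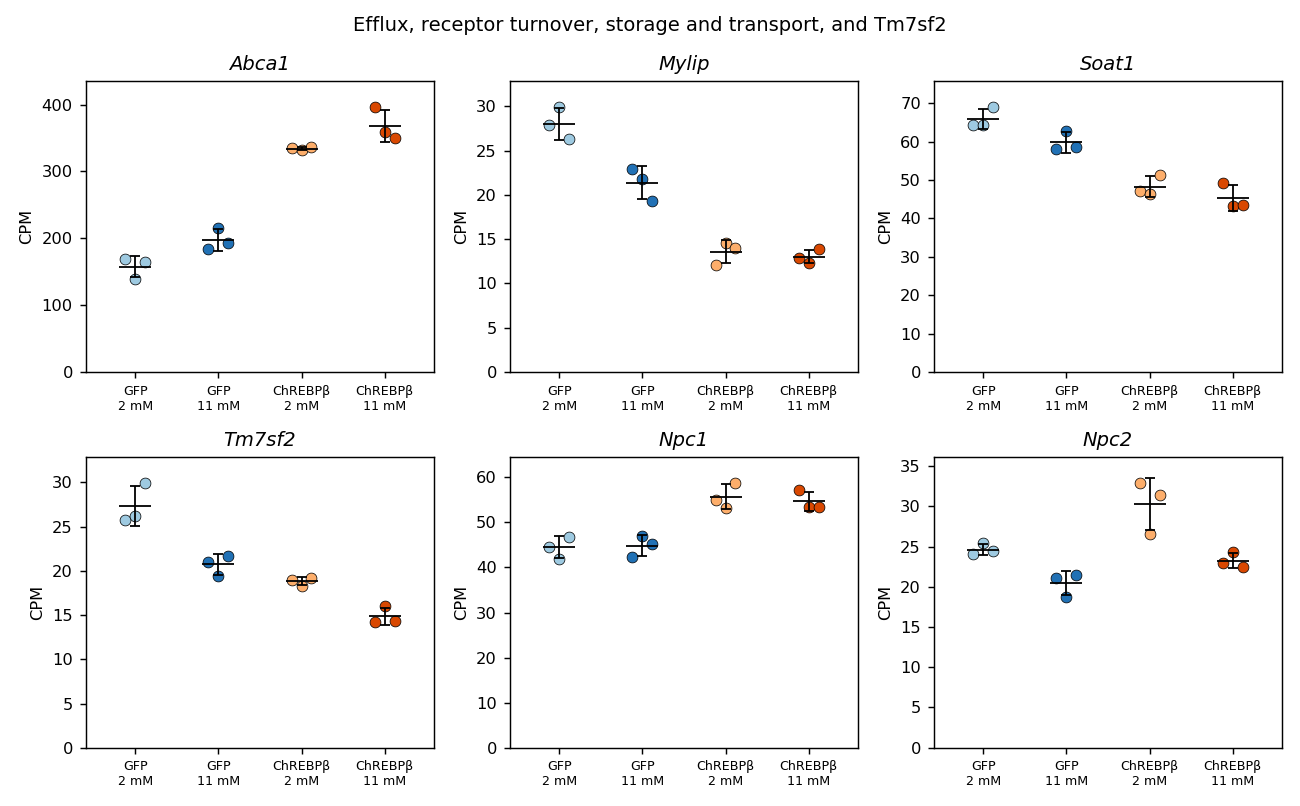
CPM (vertical axes, from 0) of Abca1, Mylip, Soat1, Tm7sf2, Npc1 and Npc2 in each library of the 4 groups, with the group mean and 1 SD (n = 3). Abca1 is higher in every ChREBPβ library, and Mylip and Soat1 are lower in every ChREBPβ library, than in all 6 GFP libraries.

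Glucose alone, at 11 against 2 mM, moved 7 of the 31 genes in GFP cells. That was 12.9% called higher and 9.68% lower, near the 10.2% and 10% of all tested genes. Acat2 rose 1.28-fold, Abca1 1.25-fold, Hmgcs1 1.22-fold and Dhcr7 1.21-fold, with log2 changes of 0.35 ± 0.06, 0.32 ± 0.07, 0.29 ± 0.05 and 0.28 ± 0.06. Tm7sf2 fell by 24.0%, Mylip by 23.8% and Npc2 by 16.9%. Insig1, Fdft1, Cyp51 and Stard4 had glucose effects of 0.24 ± 0.05, 0.23 ± 0.05, 0.23 ± 0.04 and 0.22 ± 0.05 with adjusted p of 7.79e-04, 0.00169, 2.31e-04 and 0.00185, each under 1.2-fold. In ChREBPβ cells Tm7sf2 fell by 21.1% (log2 -0.34 ± 0.07, adjusted p = 0.00486) and Npc2 by 23.0% (log2 -0.38 ± 0.07, adjusted p = 0.00242), and the 4 that rose in GFP cells had changes between -0.07 and 0.14 and did not pass. Msmo1 came next to the limit, with -0.23 ± 0.05 and an adjusted p of 0.00378. Without GFP 11 mM replicate b, Hmgcs1 was 0.26, Abca1 0.26 and Npc2 -0.21, and without GFP 2 mM replicate b, Abca1 was 0.24 and Npc2 -0.24, all below 1.2-fold. Without GFP 2 mM replicate a Dhcr7 was 0.22, without replicate c Hmgcs1 was 0.25, and with library totals the 7 calls became 2 higher and 3 lower.

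**Figure D4:**
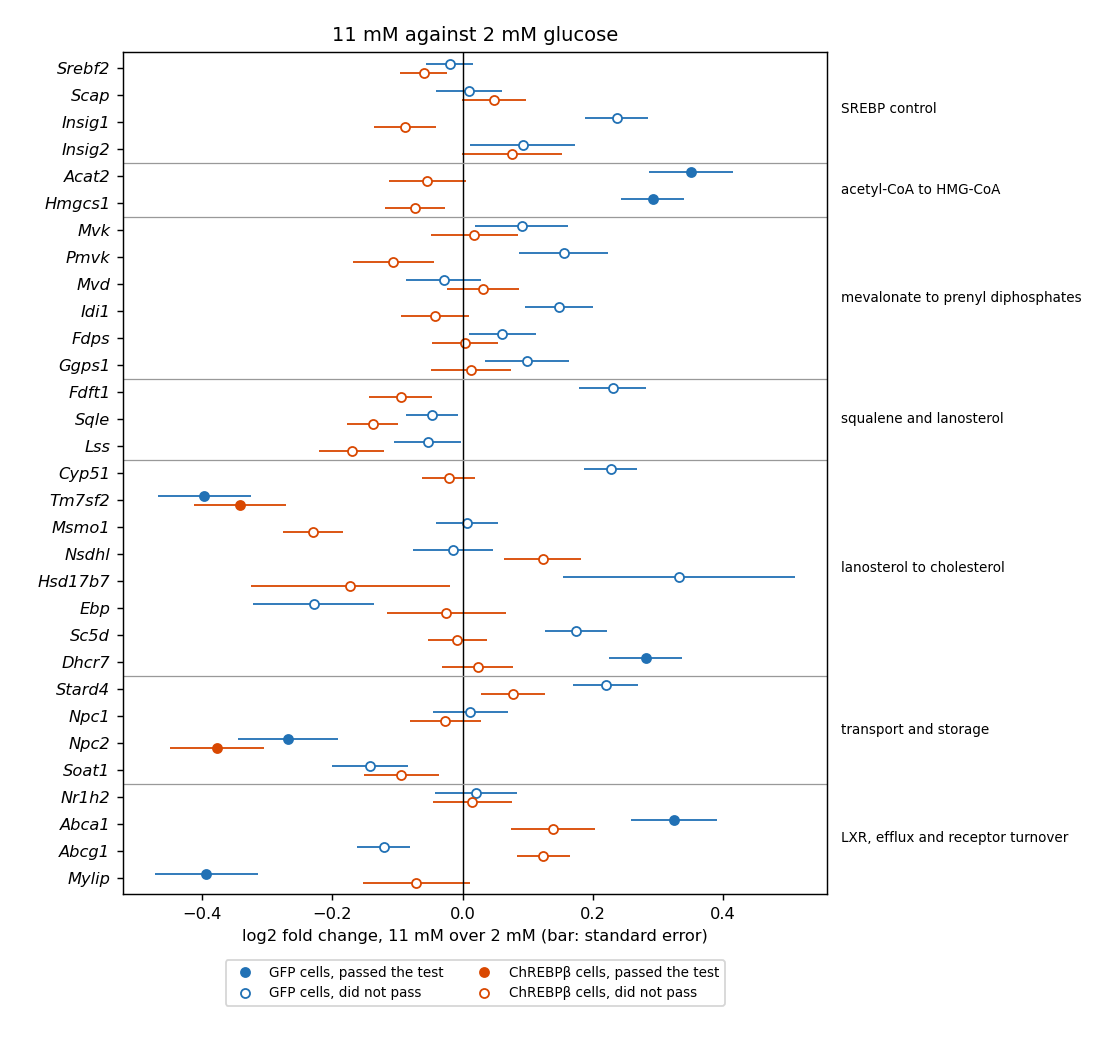
Log2 fold change of 11 over 2 mM glucose (horizontal axis) for the 31 tested genes grouped by role, in GFP cells (blue) and ChREBPβ cells (orange), with bars of 1 standard error and filled points for genes that passed the test (3 libraries a group). In GFP cells 7 points are filled, and in ChREBPβ cells 2, Tm7sf2 and Npc2.

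Whether the ChREBPβ effect itself differed between 2 and 11 mM was tested as the difference of both effects. The effect at 11 mM minus that at 2 mM passed the test as negative for 4 genes and as positive for 0, where 4.74% and 1.56% of all genes were called. At an unadjusted p under 0.05 it was negative for 11 and positive for 2, Mylip and Abcg1, and DESeq2 too called 4 and 0. In the 4 genes a rise was smaller at 11 mM. The 4 were Acat2, with a difference of -0.41 ± 0.09 on the log2 scale (adjusted p = 0.00620), Hmgcs1 with -0.36 ± 0.07 (adjusted p = 0.00166), Fdft1 with -0.33 ± 0.07 (adjusted p = 0.00638) and Insig1 with -0.32 ± 0.07 (adjusted p = 0.00463). In these genes the GFP level was higher at 11 mM in all 3 libraries than in any GFP library at 2 mM, while the change from 2 to 11 mM in ChREBPβ cells lay between -0.09 and -0.05 for the 4 and did not pass. For Hmgcs1 the means were 72.9 ± 4.44 and 89.2 ± 3.50 CPM in GFP cells and 126 ± 2.55 and 120.1 ± 3.34 CPM in ChREBPβ cells (SD, n = 3). Cyp51 and Msmo1 had differences of -0.25 ± 0.06 and -0.24 ± 0.07 with adjusted p of 0.00991 and 0.0322, under 1.2-fold. For Abca1 and Mylip the differences were -0.19 ± 0.09 and 0.32 ± 0.11 and did not pass (adjusted p = 0.263 and 0.0958). Tm7sf2, Soat1, Srebf2 and Fdps had differences of 0.05 ± 0.10, 0.05 ± 0.08, -0.04 ± 0.05 and -0.06 ± 0.07. The 4 calls stood with every library left out in turn, and 0 of the 4 passed the stricter test against a change of 1.2-fold itself. With upper quartile scaling Abcg1 was a further call, at 0.27, making the split 1 higher and 4 lower.

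**Figure D5:**
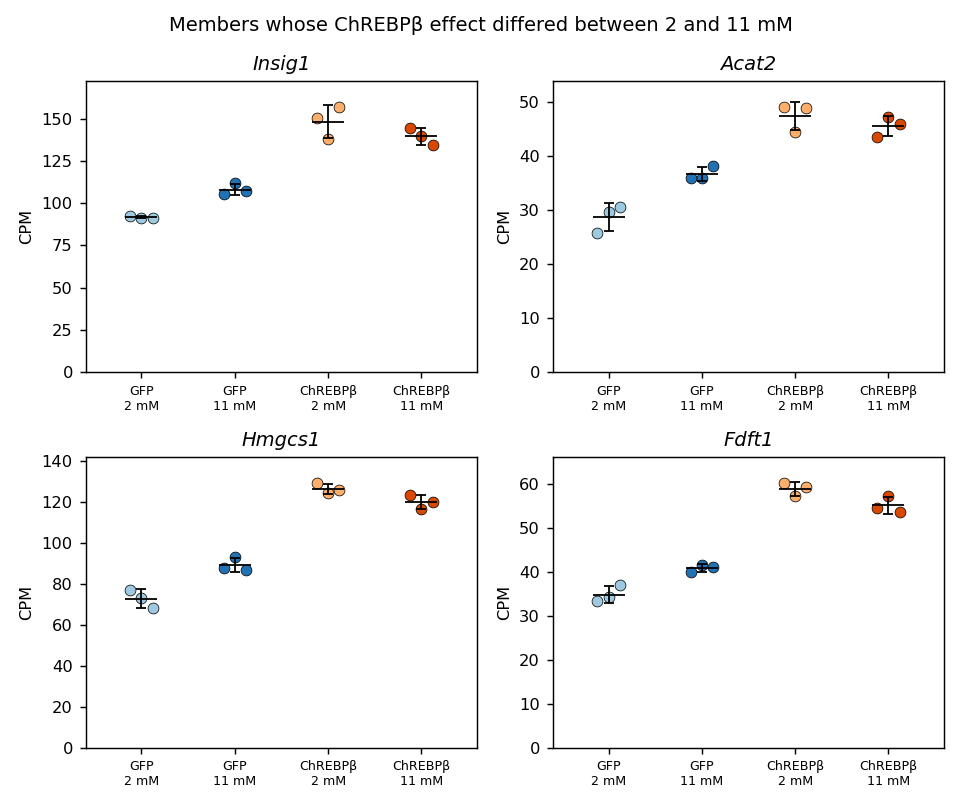
CPM (vertical axes, from 0) of Insig1, Acat2, Hmgcs1 and Fdft1 in each library of the 4 groups, with the group mean and 1 SD (n = 3). In each gene the GFP libraries are higher at 11 than at 2 mM and every ChREBPβ library is above both.

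The remaining comparisons cross virus and glucose. ChREBPβ cells at 11 mM against GFP cells at 2 mM gave 15 rises and 4 falls among the 31 genes, where 23.7% and 26.8% of all genes were called. Abca1 was 2.34-fold higher, and Mylip and Tm7sf2 fell by 53.5% and 45.6%. ChREBPβ cells at 2 mM against GFP cells at 11 mM gave 15 rises and 3 falls against 12.2% and 14.8%, and 12 and 5 with library totals. In that contrast, where the ChREBPβ cells had the lower glucose, Abca1 was 1.70-fold, Pmvk 1.56-fold and Npc2 1.47-fold higher. Stard4 and Soat1 fell by 17.0% and 19.1%, and Mylip by 35.9%. These comparisons share libraries with the earlier ones.

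Other genes of the pathway were read from 6 lists, with values given as log2 changes ± SE. The largest rise or fall of a list is the largest among its genes that passed. The share of all tested genes called higher and lower was 21% and 23.2% at 2 mM and 14.3% and 19.1% at 11 mM. Of 8 tested genes that cut SREBP2 or degrade its regulators, 0 rose at either glucose level and 1, Erlin1, fell at both (log2 -0.27 ± 0.04 and -0.34 ± 0.04), with list medians of -0.05 and -0.11. At an unadjusted p under 0.05, edgeR gave 1 of the 8 higher at 2 mM and 0 at 11 mM. Of 11 genes of the prenyl and ubiquinone branches, 1 rose and 2 fell at 2 mM and 0 rose and 1 fell at 11 mM, each below the share of all genes. The subunits of the geranylgeranyl transferase that modifies Rab proteins split, with Rabggtb at 0.37 ± 0.04 and Rabggta at -0.33 ± 0.09 at 2 mM, and at 11 mM the gene that fell was Pggt1b, at -0.29 ± 0.05. At an unadjusted p under 0.05, 3 of the 11 were higher at 11 mM. The list medians were 0.04 and -0.09. A further list held 11 tested genes of the SREBP arm for fatty acids, with Srebf1 itself and Lpin1 of triglyceride synthesis among them. Of these, 7 rose and 1 fell at 2 mM (63.6% and 9.09%, beside 21% and 23.2% of all genes). At 11 mM 6 rose and 1 fell (54.5% and 9.09%, beside 14.3% and 19.1%), and the medians were 0.50 and 0.51. Several of these are known ChREBP targets too: Acaca, the acetyl-CoA carboxylase, rose by 2.34 ± 0.06 and 1.75 ± 0.06, and Acly, which supplies cytosolic acetyl-CoA, by 1.15 ± 0.04 and 1.00 ± 0.04. Scd had the largest value of the list, 3.40 ± 0.60 and 2.11 ± 0.44, at levels under 1 CPM, and Fads1 fell, with -0.42 ± 0.05 and -0.41 ± 0.05. Srebf1, the gene of SREBP1, did not pass, at -0.26 ± 0.05 and -0.19 ± 0.05.

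Of 20 tested genes that take up, move, oxidise or pump sterols, 3 rose and 10 fell at 2 mM (15% and 50%, beside 21% and 23.2% of all genes) and 2 rose and 6 fell at 11 mM (10% and 30%, beside 14.3% and 19.1%), with medians of -0.28 and -0.13. Tmem97, which lowers NPC1 protein and is an SREBP2 target, rose most at 2 mM, by 0.71 ± 0.05, and the sterol carrier Osbpl2 at 11 mM, by 0.34 ± 0.05. Lrp8, a lipoprotein receptor that MYLIP degrades, rose by 0.53 ± 0.05 and 0.31 ± 0.04. Vldlr, another lipoprotein receptor that MYLIP degrades, went the other way at 2 mM. MYLIP acts on the receptor proteins, which were not measured here. Vldlr ran from 94.8 to 100 CPM in GFP cells and from 74.6 to 81.6 CPM in ChREBPβ cells. At 11 mM its groups overlapped, at 73.3 to 81.0 CPM in GFP and 78.0 to 79.0 CPM in ChREBPβ cells. Soat2, the other sterol esterifying enzyme, had the largest fall at 2 mM, -1.16 ± 0.36, at 0.286 to 1.51 CPM with overlapping groups. Abca7 and the sterol hydroxylase Cyp46a1 fell, with -0.85 ± 0.09 and -0.90 ± 0.12 at 2 mM and -0.55 ± 0.08 and -0.66 ± 0.11 at 11 mM. Of 6 enzymes that work beside the sterol enzymes, 2 rose and 1 fell at 2 mM (33.3% and 16.7%, beside 21% and 23.2%) and 3 rose and 1 fell at 11 mM (50% and 16.7%, beside 14.3% and 19.1%), with medians of 0.15 and 0.17. Cyb5a, the cytochrome b5 that feeds electrons to sterol oxidases, fell, with -0.74 ± 0.05 and -0.46 ± 0.05, its reductase Cyb5r3 rose by 0.68 ± 0.04 and 0.63 ± 0.04, and Faxdc2, at 2.65 to 8.20 CPM, by 1.39 ± 0.14 and 0.70 ± 0.12. Of 5 further LXR targets, 0 rose and 3 fell at 2 mM (60% lower, beside 23.2%) and 0 rose and 1 fell at 11 mM (20% lower, beside 19.1%), with medians of -0.55 and -0.18. Among those that passed, Smpdl3a had the largest fall, -0.64 ± 0.15 and -0.40 ± 0.14, while Abcg5, at under 1 CPM, had -0.94 ± 0.52 and 0.22 ± 0.50 and did not pass. The number higher was also 0 at an unadjusted p under 0.05 at both glucose levels. ChREBPb, Abcg5, Lrp8, Vldlr, Lbr, Lpin1, Srebf1, Abca7, Cyp46a1, Cyb5r3, Acaca, Acly, C1qa, C1qb, Ptprc and Pdgfrb were named after their values had been seen.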

How the data were processed

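RNA of INS-1 cells was amplified by the authors and sequenced in paired-end reads on a HiSeq2500, and they deposited raw read counts per gene for 12 libraries, 3 in each of 4 groups. The submitters' processing notes name the genome build Rnor_6.0 and the tool edgeR, and the aligner and the counter are not given in the sources used here. The same table holds the authors' mean of each group, which was not used, and the number of other sample columns was 0. Of its 28728 entries, 1 without a name was left out, with 0.0043% to 0.006% of a library's counts. Groups came from the labels.

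R 4.3.3 with edgeR 4.0.16 was used. Genes were filtered with filterByExpr by group, which kept 14669, and scaled with TMM factors. All 12 libraries entered 1 quasi-likelihood fit by group, with 7 contrasts: 6 between groups, and the ChREBPβ effect at 11 mM minus that at 2 mM. P-values were adjusted by Benjamini-Hochberg over all tested genes. A gene passed where that value was below 0.05 and the change reached 1.2-fold, and the standard error is the log2 fold change divided by the square root of F. Libraries of a group differed by more than sampling noise (chi-square per degree of freedom of 3.13 to 17.5), so each was counted as 1 replicate. Totals of 25754488 to 60531215 counts set the precision, and since RNA was amplified, limits from low counts cover counting error only. The scripts were tested on simulated data with known changes.

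The 32 genes, the 6 further lists and the markers were chosen with earlier results of these data known. All 32 genes were described by role. Values by library were given for genes called in the difference of effects and for the 3 largest rises and falls of the ChREBPβ comparisons and of glucose in GFP cells. From each further list, the largest rise and fall that passed was named where it could be reported. Promoter sequences are RefSeq's for GRCr8, searched on both strands in Python 3.11.15. Genes without an entry in the table under the symbol used were Spring1, Scp2, Erg28, Arl4c, Col1a2 and Pecam1. Alternatives were DESeq2 1.42.0, the likelihood ratio test, library totals, upper quartile or RLE factors, a test against 1.2-fold, no and a 2-fold minimum, a filter of 10 counts per library, no filter, only the groups compared, the replicate letter as a block, and leaving out each library. A few single genes are not reported.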

Additional observations from a re-analysis of the deposited data

Results flagged for a closer look

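The ChREBPβ effect differed between glucose levels for 4 genes by the test of the difference itself, and in each it was the smaller at 11 mM. The effect at 11 mM minus that at 2 mM, on the log2 scale, was -0.41 for Acat2, -0.36 for Hmgcs1, -0.33 for Fdft1 and -0.32 for Insig1, with adjusted p between 0.00166 and 0.00638 in edgeR's quasi-likelihood test. In the test against a change of 1.2-fold itself 0 of the 4 passed. In all 3 GFP libraries at 11 mM each of these genes was above every GFP library at 2 mM. The part of the higher GFP level in the difference was not tested. Groups of 3 libraries were too small for a search for outlying libraries.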

How the results depend on the processing

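Over all alternatives the 31 genes gave 5177 values, of which 4950 kept their side of the threshold, 156 no longer passed, 71 newly passed and 0 called values reversed. Among the 4950, 105 values that passed in neither fit changed sign. Without a minimum fold change the calls were 14 for glucose in GFP cells, 5 for glucose in ChREBPβ cells and 8 for the difference of effects, in place of 7, 2 and 4. With a minimum of 2-fold they were 2 for ChREBPβ at 2 mM (Abca1 and Mylip) and 2 for ChREBPβ at 11 mM against GFP at 2 mM, and 0 in the other 5 comparisons. The test against 1.2-fold itself gave 0 for glucose in GFP cells, 0 in ChREBPβ cells, 0 for the difference of effects, and 11 in place of 18 for ChREBPβ at 2 mM against GFP at 11 mM, with 16 and 12 in place of 20 and 15 for ChREBPβ at 2 and at 11 mM. Without a low-count filter the difference of effects gave 6 in place of 4. Leaving out 1 library at a time gave 4 to 8 calls for glucose in GFP cells, 4 without GFP 11 mM replicate b, and 4 to 8 for the difference of effects, 8 without that same library and 7 without ChREBPβ 2 mM replicate b. The calls were 19 to 21 for ChREBPβ at 2 mM, 15 to 16 at 11 mM, 2 to 3 for glucose in ChREBPβ cells, 18 to 19 for ChREBPβ at 11 mM against GFP at 2 mM and 16 to 19 for ChREBPβ at 2 mM against GFP at 11 mM. The replicate letter as a block changed 0 member calls: the replicate block gave 20 and 15 for ChREBPβ at 2 and 11 mM, 7 and 2 for glucose in GFP and ChREBPβ cells, 19 and 18 for the comparisons that cross virus and glucose, and 4 for the difference of effects. Libraries of the same letter did not deviate together, with 18 correlations from -0.11 to 0.06, so the letters were not taken as pairs. Over all genes and in that same order, a minimum of 2-fold left 1456, 992, 294, 28, 1866, 795 and 108 calls of 6476, 4904, 2963, 567, 7407, 3955 and 925, no minimum gave 5030, 1100 and 6109 in place of 2963, 567 and 3955, for glucose in GFP cells, in ChREBPβ cells and ChREBPβ at 2 mM against GFP at 11 mM, and the test against 1.2-fold gave 2963, 1113, 85, 2360 and 194 in place of 4904, 2963, 567, 3955 and 925. A fit of only the groups compared cannot give the difference of effects. Hsd17b7, with 60 to 216 counts a library, had the fewest counts of the 31 genes, and its call for ChREBPβ at 2 mM against GFP at 11 mM was lost without GFP 11 mM replicate a or c or any 1 ChREBPβ 2 mM library, with log2 changes of 0.36 to 0.47 in place of 0.44. The fall of Stard4 in that comparison was -0.25 without GFP 11 mM replicate b and -0.24 without ChREBPβ 2 mM replicate b, under 1.2-fold. Nr1h2 passed for ChREBPβ at 11 mM against GFP at 2 mM, but not without GFP 2 mM replicate a or ChREBPβ 11 mM replicate b, at 0.20 and 0.24.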
